A study of Mus musculus with 9 samples.

Results

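Adult olfactory bulb stem cells (aOBSCs) that received FGF-2 and EGF every 2 days were compared with both the cultures fed every day and those fed every 4 days, to find transcripts for which the middle interval was not in the middle. The comparison used all 9 arrays of the series and took, for each probe set, the mean of the 3 arrays of the 2-day condition (C2) minus the average of the means of the daily condition (Ctr) and the 4-day condition (C4). It covered 45037 probe sets, which is every probe set of the Affymetrix Mouse Genome array other than its 64 control probe sets. Of these, 264 stood higher in C2 than in both other conditions and 82 stood lower, by the rule given below.

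The cells were grown as floating neurospheres from the olfactory bulb of adult mice (CD1 or C57Bl/6, with ages of 7 and 15 months named for the cultures of the arrays), and no genetic change is named for them. All cultures received both factors, first daily and then at their own interval, and RNA was taken after 7 days. At that time C2 cultures had been 1 day and C4 cultures 3 days without added factors. Between C2 and C4 the interval and the time since the last addition thus cannot be told apart. The time for Ctr is not given. With daily addition it can be at most about 1 day, and how far it differed from that of C2 is not known. Which array came from which mice is not given, so that p-values measure the spread between these 9 samples, which may be in part technical. Each condition had 3 arrays. Because the arrays read RNA of whole cultures, fewer cells of a type and less RNA per cell cannot be told apart.

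FGF-2 and EGF bind receptor tyrosine kinases and keep neural stem cells in culture proliferating and undifferentiated, in part through the MAP kinase ERK. Many of the genes described here belong to the integrated stress response, in which kinases that sense a lack of amino acids, misfolded protein or other stress phosphorylate the translation factor eIF2, general protein synthesis falls, and the transcription factor ATF4 is made. ATF4 pairs with C/EBP proteins on composite sites in DNA and raises genes for amino acid uptake, amino acid synthesis and the charging of tRNAs. Aminoacyl-tRNA synthetases are the enzymes that charge each tRNA with its amino acid before the ribosome uses it.

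Promoters are shown first for genes of this response that were higher in C2 than in both other conditions, because the core of the composite C/EBP-ATF response element lies in them. The windows run from 250 bases before to 50 bases after a start given in the RefSeq promoter table on mouse GRCm38.p6 (for Aars a start inside the annotated gene span, for the other 4 the gene start), are written 5′ to 3′ on the strand of the gene, and carry in capitals each match to TGATGNAA or to its reverse complement. Asns encodes asparagine synthetase, Chac1 an enzyme that degrades glutathione, Nupr1 a small stress-induced nuclear protein, and Gars and Aars the synthetases for glycine and alanine.
Asns, chr6:7693160-7693459, minus strand: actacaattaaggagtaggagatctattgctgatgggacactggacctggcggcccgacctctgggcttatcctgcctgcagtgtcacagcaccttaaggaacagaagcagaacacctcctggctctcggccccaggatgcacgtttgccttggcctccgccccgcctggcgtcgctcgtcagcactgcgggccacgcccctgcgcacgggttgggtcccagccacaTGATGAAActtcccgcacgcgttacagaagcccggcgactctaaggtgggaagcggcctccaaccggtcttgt
Chac1, chr2:119350992-119351291, plus strand: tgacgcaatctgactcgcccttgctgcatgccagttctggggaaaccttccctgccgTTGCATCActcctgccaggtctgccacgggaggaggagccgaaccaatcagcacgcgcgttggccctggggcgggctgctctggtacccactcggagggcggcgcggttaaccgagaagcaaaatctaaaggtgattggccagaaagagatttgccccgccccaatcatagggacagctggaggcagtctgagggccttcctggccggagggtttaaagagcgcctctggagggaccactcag
Nupr1, chr7:126625421-126625720, minus strand: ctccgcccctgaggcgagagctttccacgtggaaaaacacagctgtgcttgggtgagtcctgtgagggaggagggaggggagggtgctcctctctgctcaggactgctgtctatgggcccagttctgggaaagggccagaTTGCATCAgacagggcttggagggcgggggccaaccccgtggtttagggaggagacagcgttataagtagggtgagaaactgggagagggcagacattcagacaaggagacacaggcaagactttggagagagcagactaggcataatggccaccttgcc
Gars, chr6:55037751-55038050, plus strand: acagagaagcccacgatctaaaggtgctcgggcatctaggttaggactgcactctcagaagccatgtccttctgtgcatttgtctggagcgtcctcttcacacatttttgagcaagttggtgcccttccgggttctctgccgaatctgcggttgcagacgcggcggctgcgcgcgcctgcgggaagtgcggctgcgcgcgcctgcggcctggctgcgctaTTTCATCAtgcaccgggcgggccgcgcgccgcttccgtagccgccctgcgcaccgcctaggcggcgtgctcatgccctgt
Aars, chr8:111033592-111033891, plus strand: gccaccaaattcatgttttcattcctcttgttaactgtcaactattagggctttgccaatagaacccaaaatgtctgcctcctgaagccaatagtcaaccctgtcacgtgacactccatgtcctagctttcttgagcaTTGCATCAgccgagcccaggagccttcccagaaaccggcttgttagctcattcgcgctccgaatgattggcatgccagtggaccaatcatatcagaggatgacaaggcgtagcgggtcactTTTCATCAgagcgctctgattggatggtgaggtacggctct

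Aars held 2 matches in its window, and the other 4 genes held 1 match each. Across 5 lists of genes of the stress response and of amino acid supply, 34 genes were higher in C2 than in both other conditions, and 26 of them had 1 or more promoter windows in the RefSeq table. A match was present in 11 of these 31 windows (35.5%), those of Aars, Asns, Chac1, Fgf21, Gars, Got1, Iars, Nupr1, Pck2, Tars and Yars. Among all 32851 promoter windows the share was 3.97% (1304 windows). Members of the same 5 lists that the comparison did not call higher had a match in 1 of 31 windows (3.23%). List members that the comparison called higher without a call above both are in neither group. Slc7a11, Trib3 and Vldlr are among these members and also had a match, so that matches were not particular to genes above both. Genes higher in C2 than in both other conditions but in none of the 5 lists had a match in 9 of 146 windows (6.16%), and genes lower than in both had none in 54 windows. The letters and the lists were chosen with earlier results of these data known. The element is part of the response that the lists describe, so a raised share could be foreseen and is not independent evidence. A match of these letters is a description of the window and not evidence that a factor was bound there.

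Values are log2 units of the deposited GCRMA expression measure, so that a difference of 1 is a factor of 2. A probe set is here called above or below both when 3 adjusted p-values from limma were under 0.05 in the same direction: that of the comparison of C2 with the average of Ctr and C4, that of C2 against Ctr and that of C2 against C4. Both differences use the same C2 arrays, so a chance deviation of those arrays enters all 3. The probe set with the highest mean over all arrays stands for its gene, and a condition mean under 4 is near the floor of the arrays. Other probe sets are described for some genes only.

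Counts over all probe sets were as follows. The comparison with the average of Ctr and C4 called 701 probe sets higher (1.56%) and 566 lower (1.26%). Of the higher ones 663 had a C2 mean above both other means and 38 had one in between, and of the lower ones 472 lay below both and 94 in between. With all 3 p-values, 264 probe sets were above both (0.586%) and 82 below both (0.182%). Counted by gene, of 18194 genes, the comparison called 412 higher (2.26%) and 355 lower (1.95%), with 169 genes above both (0.929%) and 54 below both (0.297%). These shares are the background against which the counts of members of a gene list are to be read.

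By the same rule, Ctr stood above both other conditions for 166 probe sets (0.369%) and below both for 190 (0.422%), while C4 stood above both for 972 (2.16%) and below both for 581 (1.29%). C2 was thus the extreme condition for fewer probe sets than C4, and for about as many as Ctr. The calls of C2 were split 264 higher to 82 lower, and 331 to 171 when the arrays were shifted to a common median.

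**Figure D1:**
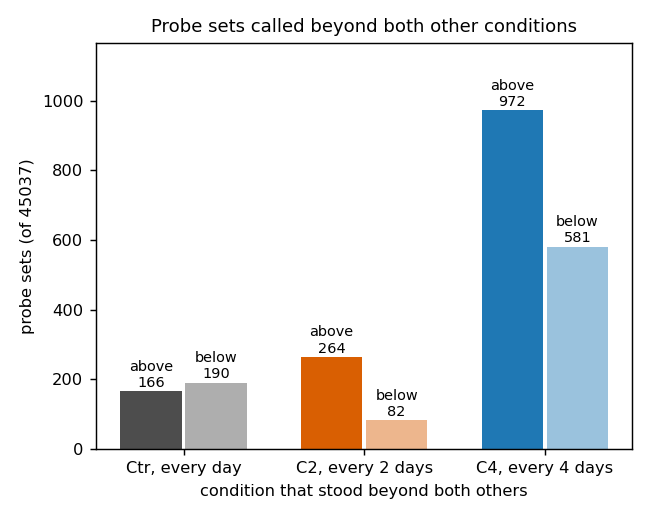
Number of probe sets, of 45037, for which each condition was called above (solid bars) or below (pale bars) both other conditions. C2 had 264 above and 82 below, C4 had 972 and 581, and Ctr had 166 and 190.

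In none of the 264 and 82 probe sets did a C2 array overlap any of the other 6 arrays. With 3 arrays per condition the rule itself makes such an overlap unlikely, so this is not a separate result. The share without overlap over all probe sets is not given here. The median difference of those above both was 0.42 from Ctr and 0.51 from C4, and that of those below both was -0.38 from Ctr and -0.50 from C4. Most differences were thus smaller than a factor of 2: both differences reached 1 for 16 probe sets above and 2 below. Among the 264, C4 was called lower than Ctr for 88, called higher for 15 and not called for 161. Among the 82, C4 was called higher than Ctr for 30, called lower for 3 and not called for 49. Just inside the threshold lay Vdac3, with a largest adjusted p of 0.0494 and differences of 0.19 from Ctr and 0.36 from C4, and just outside it Abcc4, with 0.0507 and differences of 0.65 and 0.86.

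**Figure D2:**
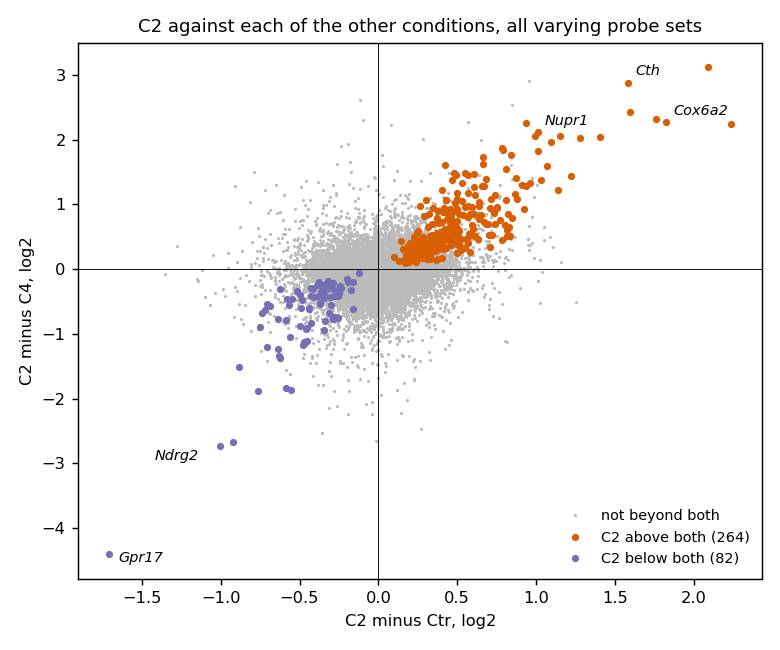
Difference of the C2 mean from the Ctr mean (horizontal axis, log2) against its difference from the C4 mean (vertical axis, log2) for every varying probe set. Orange points (264) are above both conditions and purple points (82) below both, and Gpr17 and Cox6a2 are among the points farthest from the centre.

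The number of calls depended on single arrays and on the variance model. Leaving out 1 array left between 113 and 213 probe sets above both, with 139, 113 and 172 without Ctr replicates 1, 2 and 3 and 160 and 154 without C2 replicates 1 and 3. It left between 33 and 57 below both, with 42, 33 and 37 without Ctr replicates 1, 2 and 3, with 43, 33 and 38 without C2 replicates 1, 2 and 3, and with 53 without C4 replicate 3. A variance prior made robust to outlying probe sets gave 28 and 2 over all probe sets, and 537 and 242 once dim probe sets were left out as well. Of 56 named genes beyond both, 17 kept the call with that prior over all probe sets (Cox6a2, Cyb5r1, Nupr1, Cd93, Slc25a33, Ddit3, Slc7a1, Slc3a2, Slc4a10, Cebpg, Asns, Psph, Nars, Aars, Lars, Jag1 and Nnat), and 55 with the filter added. For 18 of the 264 and 2 of the 82, the 3 arrays of a condition had identical values, which can arise when GCRMA summarises a probe set by median polish, and an SD of 0 there is not a measured spread.

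Cytosolic aminoacyl-tRNA synthetases were the group with the largest number of members above both. Of 19 measured, 13 were higher in C2 than in both Ctr and C4 and 14 were higher in the comparison with their average, and none was lower, against a background of 0.929% and 2.26% of genes. The median difference of the list from the average was 0.59, beside 0 over all genes. For Nars, the asparagine enzyme, the arrays read 11.14, 11.02 and 11.11 in Ctr, 11.67, 11.65 and 11.66 in C2 and 10.50, 10.46 and 10.49 in C4. C2 was the highest condition and C4 the lowest, with no overlap between any of the 3. The difference was 0.57 from Ctr (limma, SE 0.0305, adjusted p = 0.00156) and 1.18 from C4 (adjusted p = 1.74e-05).

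Aars, for alanine, read 10.34, 10.38 and 10.34 in Ctr, 10.87, 10.95 and 10.96 in C2 and 9.97, 9.91 and 9.98 in C4. Lars, for leucine, read 10.59, 10.60 and 10.70 in Ctr, 11.19, 11.22 and 11.24 in C2 and 10.21, 10.27 and 10.27 in C4. Both had the order C4, Ctr, C2 from low to high, as Nars did. At a dimmer Aars probe set, with means of 9.90, 10.33 and 9.43 in Ctr, C2 and C4, C2 against Ctr was not called (adjusted p = 0.0625). The largest difference from Ctr among the 13 was that of Wars, for tryptophan, which read 7.68 on each Ctr array, 8.29, 8.56 and 8.62 in C2 and 7.49, 7.38 and 7.39 in C4. Its difference was 0.81 from Ctr (SE 0.0846, adjusted p = 0.0107) and 1.07 from C4 (adjusted p = 0.00104), and 3 further probe sets of Wars were called above both too.

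The other synthetases above both were Cars, Eprs, Gars, Iars, Mars1, Rars, Sars, Tars and Yars, with differences from the average between 0.39 for Rars and 0.79 for Sars. Farsb was higher than the average (0.52, adjusted p = 0.0269) and than C4 (adjusted p = 0.00539), but C2 against Ctr was not called (adjusted p = 0.463). The values for Farsa, Hars, Kars, Qars and Vars were -0.08, 0.21, 0.18, -0.22 and 0.48, and none of them was called. Mitochondrial aminoacyl-tRNA synthetases, a list added after the data were seen, had no member called in either direction among 16 measured, with a median of 0.03 and values between -0.12 and 0.25. Without Ctr replicate 2 the 13 synthetases above both became 7, and without C2 replicate 3 they became 8. With the robust variance prior they became 3, and 14 when dim probe sets were left out as well. Nars, Aars, Lars and Wars kept the call without any 1 of the 9 arrays, but Wars lost it with the robust variance prior over all probe sets.

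Regulators of the integrated stress response were higher in C2 as well. Of 17 measured, 8 were above both and 11 were higher than the average, none was lower, and the median difference from the average was 0.57. Those above both were the transcription factors Atf4, Atf5, Ddit3 (CHOP) and Cebpg, the nuclear protein Nupr1, Chac1, the stress-induced regulator Sesn2 and the secreted factor Fgf21, whose mean was 2.44 in Ctr and C4 and 3.36 in C2 and thus near the floor. Nupr1 read 9.89, 9.91 and 10.01 in Ctr, 10.86, 10.94 and 11.04 in C2 and 8.83, 8.88 and 8.77 in C4. The arrays of the 3 conditions lay apart, and C2 was 2.01-fold above Ctr (adjusted p = 0.00156) and 4.35-fold above C4 (adjusted p = 1.74e-05).

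Chac1, which breaks down glutathione, read 7.56, 7.51 and 7.34 in Ctr, 8.33, 8.36 and 8.53 in C2 and 6.01, 6.31 and 6.13 in C4. Its C2 mean was 1.92-fold that of Ctr and 4.78-fold that of C4. Ddit3, whose protein CHOP acts in prolonged stress, read 9.07, 8.96 and 9.10 in Ctr, 9.85, 9.92 and 9.94 in C2 and 8.73, 8.80 and 8.70 in C4. C4 was also called lower than Ctr for this gene (difference -0.30, adjusted p = 0.0112). A second probe set of Ddit3, with means of 5.39, 5.43 and 5.54 in Ctr, C2 and C4, was not called.

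Atf5 read 7.41 on each Ctr array, 8.56, 8.44 and 8.51 in C2 and 6.40, 6.39 and 6.82 in C4, with a C2 mean 2.14-fold that of Ctr. Cebpg, a partner of ATF4, read 8.73, 8.73 and 8.81 in Ctr, 9.46, 9.44 and 9.41 in C2 and 8.03, 8.03 and 8.06 in C4. The spread of Cebpg within a condition was narrow, and its difference from the average of 1.04 had an SE of 0.0231 (adjusted p = 1.45e-05). Another Cebpg probe set, with means of 7.03, 7.80 and 6.50 in Ctr, C2 and C4, was not called against Ctr (adjusted p = 0.0759). For Atf4 itself the means were 10.83 in Ctr, 11.29 in C2 and 10.62 in C4, with adjusted p-values of 0.0243 against Ctr and 0.00194 against C4.

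Trib3, a pseudokinase induced by ATF4, had the largest difference from the average in the list, 1.69 (adjusted p = 0.00296), but C2 against Ctr was not called (difference 0.85, adjusted p = 0.0752). Ppp1r15a (GADD34) and Vldlr were called higher than the average and than C4 but not against Ctr, and for Vldlr the C2 mean of 11.24 lay below that of 11.33 in Ctr. Of the sensor kinases, Eif2ak3 (PERK) and Eif2ak4 (GCN2) had differences of -0.31 and -0.01 and were not called. Nor were Cebpb, Ddit4, Stc2 and Ern1. In the separate list of the unfolded protein response of the endoplasmic reticulum, 1 of 18 members was higher than the average and 1 lower. The latter, Xbp1, a transcription factor of that response, was below both, reading 9.31, 9.24 and 9.28 in Ctr, 9.06, 8.98 and 8.95 in C2 and 9.31, 9.37 and 9.21 in C4. Other probe sets of Xbp1 were not called, and those with means above 4 had C2 differences from Ctr of -0.26 and -0.01. The call of Xbp1 was lost without any 1 of the Ctr or C2 arrays and without C4 replicate 1. Nupr1, Chac1, Ddit3, Atf5 and Cebpg kept theirs without each array, but Chac1 and Atf5 lost theirs with the robust variance prior over all probe sets.

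**Figure D3:**
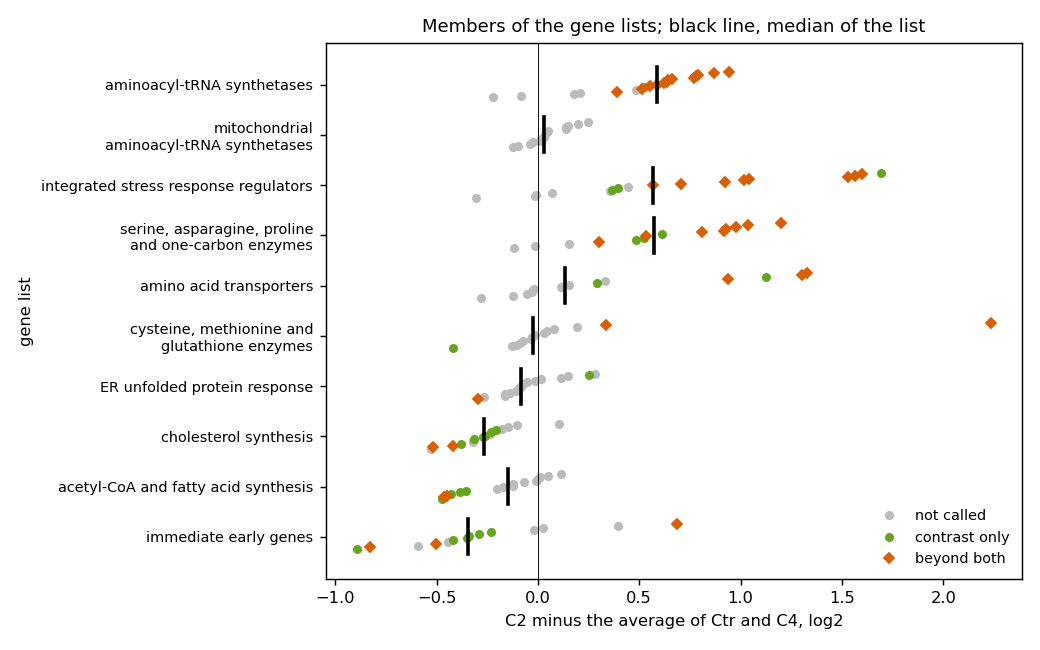
Difference of the C2 mean from the average of the Ctr and C4 means (horizontal axis, log2) for each measured member of 10 gene lists, with the median of the list as a black line. Of the 19 cytosolic synthetases 13 are above both (diamonds), while the cholesterol list lies mostly to the left of 0 with a median of -0.27.

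Enzymes that make serine, asparagine, proline and one-carbon units followed the same pattern. Of 14 measured, 8 were above both, 11 were higher than the average and none was lower, with a median difference from the average of 0.57. Asns, the asparagine synthetase gene (chromosome 6 from 7675165 to 7693209), read 11.48, 11.41 and 11.48 in Ctr, 12.06, 12.03 and 12.10 in C2 and 10.57, 10.66 and 10.56 in C4. C2 was the highest and C4 the lowest on every array. The differences were 0.61 from Ctr (SE 0.0362, adjusted p = 0.00218) and 1.46 from C4 (adjusted p = 1.47e-05).

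Psph, which carries out the last step of serine synthesis, read 10.13, 10.24 and 10.24 in Ctr, 10.85, 10.81 and 10.86 in C2 and 9.82, 9.91 and 9.84 in C4. Pck2, the mitochondrial phosphoenolpyruvate carboxykinase, read 9.22, 9.22 and 9.27 in Ctr, 9.71, 9.73 and 9.87 in C2 and 8.44, 8.41 and 8.49 in C4. For both genes C4 was also called lower than Ctr. A dimmer probe set of Pck2 was higher than the average but not called against Ctr (difference 0.65, adjusted p = 0.127). Phgdh, the first enzyme of serine synthesis, the mitochondrial folate enzymes Shmt2, Mthfd2 and Aldh1l2, and the aspartate aminotransferase Got1 were above both as well, with differences from the average of 0.53, 0.98, 1.20, 0.92 and 0.30. The cytosolic enzymes Shmt1 and Mthfd1 had values of -0.01 and 0.15 and were not called. Psat1, Mthfd1l and Aldh18a1 were called higher than the average and than C4 but not against Ctr, and Gpt2 had a value of -0.12. Asns, Psph and Pck2 kept their calls without each of the 9 arrays.

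Cth (chromosome 3 from 157894248 to 157925081) had the largest difference from the average among the probe sets that stand for genes, 2.23. It encodes cystathionine gamma-lyase, which makes cysteine from cystathionine. The arrays read 6.74, 7.05 and 7.26 in Ctr, 8.60, 8.51 and 8.70 in C2 and 5.40, 5.90 and 5.86 in C4. The C2 arrays were the highest 3, and the C2 mean was 3.00-fold that of Ctr (adjusted p = 0.0132) and 7.37-fold that of C4 (adjusted p = 3.92e-04). The call of Cth against both was lost without Ctr replicate 2, C2 replicate 1 or C2 replicate 3.

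Of the 14 genes of cysteine, methionine and glutathione in its list, 2 were above both. The other was Gpx4, a glutathione peroxidase for lipid peroxides, with 11.31, 11.25 and 11.36 in Ctr, 11.60, 11.57 and 11.57 in C2 and 11.11, 11.22 and 11.21 in C4, and its call was lost without any 1 of 6 arrays (Ctr replicates 1 and 2, C2 replicates 1, 2 and 3 and C4 replicate 3). The glutathione transferase Gsta4 was lower than the average. The list had a median of -0.02.

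Of 14 amino acid transporters 3 were above both and 5 higher than the average, none was lower, and the median was 0.13. Slc7a5 and Slc3a2 encode the 2 chains of one exchanger of large neutral amino acids, and each was above both other conditions. Slc7a5 read 9.36, 9.31 and 9.24 in Ctr, 10.09, 10.04 and 10.14 in C2 and 8.12, 8.13 and 8.39 in C4. Slc3a2 read 11.09, 11.02 and 11.03 in Ctr, 11.64, 11.65 and 11.69 in C2 and 10.36, 10.41 and 10.40 in C4. In each of the 2 genes the 3 conditions lay apart, with C2 1.72-fold and 1.53-fold above Ctr.

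Slc7a1, the carrier of arginine and lysine, read 9.86, 9.98 and 10.04 in Ctr, 10.82, 10.71 and 10.88 in C2 and 9.02, 8.96 and 9.15 in C4. Its second expressed probe set was above both too. The cystine carrier Slc7a11 had a difference from the average of 1.12 (adjusted p = 0.00901), but C2 against Ctr missed the threshold (0.85, adjusted p = 0.0534). Slc38a2, a sodium-coupled carrier, was called higher than the average (0.29) and than C4 (0.67, adjusted p = 5.19e-04) but not against Ctr, with a mean of 11.67 in C2 below that of 11.76 in Ctr. Slc7a5, Slc3a2 and Slc7a1 kept their calls without each array. Over the 5 lists of this response together, the 34 genes above both became 18 without Ctr replicate 2, 21 without C2 replicate 1 and 20 without C2 replicate 3.

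Genes outside these pathways were also among the largest increases. Cox6a2 (chromosome 7 from 128205435 to 128206366), which encodes a subunit of cytochrome c oxidase typical of heart and muscle, read 6.19, 5.86 and 6.11 in Ctr, 7.73, 7.95 and 7.95 in C2 and 5.62, 5.73 and 5.47 in C4. The C2 mean was 3.55-fold that of Ctr (adjusted p = 0.00227) and 4.83-fold that of C4 (adjusted p = 1.63e-04), and C4 against Ctr was not called (adjusted p = 0.0824). Of 21 respiratory chain genes 1 other was above both, Ndufv1 of complex I, with a difference from the average of 0.20. Ndufv1 kept its call only when C4 replicate 2 was the array left out. The liver-type and widely expressed partner Cox6a1 had a difference of 0.08 and was not called.

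P2rx3, an ATP-gated cation channel of sensory neurons, read 6.12, 5.80 and 6.10 in Ctr, 7.77, 7.40 and 7.63 in C2 and 5.55, 4.98 and 4.98 in C4. A further 2 probe sets of P2rx3 were above both, with differences from the average of 2.61 and 1.73. The call at the probe set of highest mean was lost without Ctr replicate 2, C2 replicate 1 or C2 replicate 3. Cyb5r1, of the NADH-cytochrome b5 reductase family, read 8.86, 8.93 and 8.82 in Ctr, 10.15, 10.15 and 10.16 in C2 and 8.16, 8.14 and 8.08 in C4. Its difference from the average of 1.65 had an adjusted p of 5.51e-06, and C4 was also called lower than Ctr. Cd93, a lectin-like receptor of endothelial and blood cells, read 8.09, 8.06 and 8.13 in Ctr, 9.07, 9.00 and 9.18 in C2 and 7.14, 6.85 and 7.09 in C4. None of the 8 genes of the endothelial marker list had a mean of 4 or more.

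Slc25a33, a mitochondrial carrier of pyrimidine nucleotides, read 7.31 on each Ctr array, 8.31, 8.16 and 8.19 in C2 and 6.81, 6.98 and 6.97 in C4. Stard5, a lipid transfer protein, read 5.54, 5.60 and 5.34 in Ctr, 6.39, 6.34 and 6.22 in C2 and 5.54, 5.51 and 5.34 in C4. The Ctr and C4 arrays of Stard5 overlapped and C2 lay above them. Prkg1, a kinase activated by cyclic GMP, read 6.64, 6.71 and 6.74 in Ctr, 7.32, 7.50 and 7.52 in C2 and 6.38, 6.66 and 6.45 in C4. Ctr and C4 arrays overlapped for Prkg1, and its call was lost without Ctr replicate 2, C2 replicate 2 or C2 replicate 3. A dimmer Prkg1 probe set was higher than the average but not called against Ctr (difference 0.76, adjusted p = 0.0592). Slc4a10, a sodium-coupled bicarbonate transporter, read 5.80, 5.81 and 5.93 in C2 against 4.08 on each Ctr array, with a C4 mean of 3.53 near the floor. Of 21 bicarbonate transporters and carbonic anhydrases it was the only one above both, and 2 were higher than the average. Cox6a2, Cyb5r1, Cd93, Slc25a33, Stard5 and Slc4a10 kept their calls without each array.

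**Figure D4:**
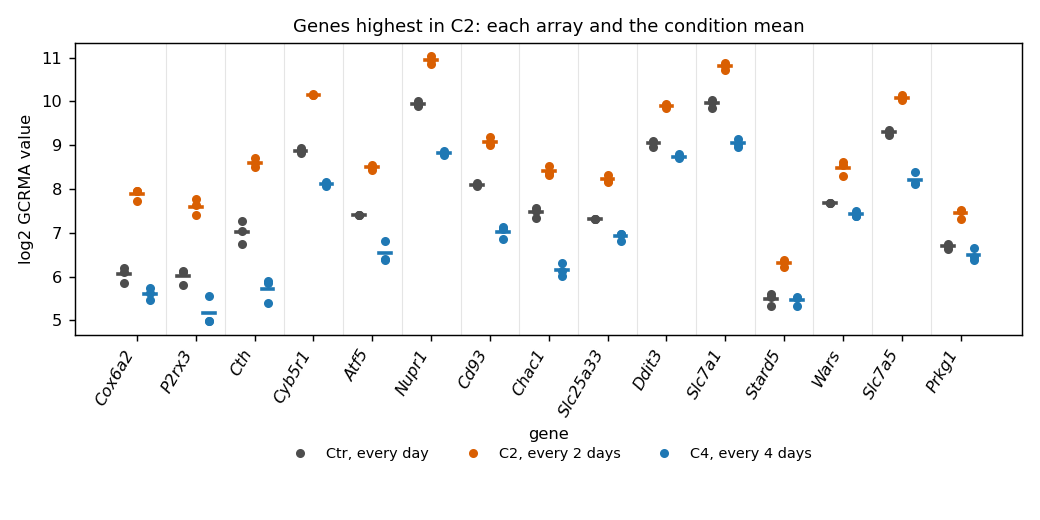
Log2 GCRMA values (vertical axis) of the 15 genes with the largest smaller difference above Ctr and C4, with 1 point per array and a line at the mean of each condition. All 3 C2 arrays (orange) lie above all Ctr (grey) and C4 (blue) arrays for every gene shown, which is part of how the genes were chosen.

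Fewer genes were below both. Among those with every condition mean at 4 or more, Ndrg2 and Aldh1l1 had the largest smaller difference. Ndrg2 (chromosome 14 from 51905271 to 51914004), a gene of astrocytes, read 6.24, 6.34 and 6.34 in Ctr, 5.45, 5.05 and 5.39 in C2 and 7.91, 7.99 and 8.19 in C4. C2 was the lowest on every array, with a mean 0.498-fold that of Ctr (adjusted p = 0.0164), while C4 was higher than Ctr by 1.72 (adjusted p = 7.16e-04). Aldh1l1, a folate enzyme used as an astrocyte marker, read 8.10, 8.04 and 8.22 in Ctr, 7.24, 7.42 and 7.42 in C2 and 9.24, 9.12 and 9.34 in C4. The call of Ndrg2 was lost without any 1 of the Ctr arrays and without C2 replicate 3, and that of Aldh1l1 held without each array.

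Both genes belong to a list of 16 astrocyte genes, of which 2 were below both and 5 lower than the average (Ndrg2, Aldh1l1, Aqp4, Fgfr3 and Ttyh1), against backgrounds of 0.297% and 1.95%. The summed level of the list did not fall in C2: the log2 of the sum was 14.98 to 15.01 in Ctr, 15.01 to 15.07 in C2 and 15.40 to 15.44 in C4. In this sum of linear values bright genes weigh most, such as Apoe with means of 13.28, 13.52 and 14.01 in Ctr, C2 and C4. The median difference of the list was -0.06 from Ctr and -0.31 from C4. For Fgfr3 and Ttyh1 the C2 mean was close to that of Ctr and C4 alone was higher. Gfap, the best known astrocyte gene, had means of 3.68, 3.98 and 3.79 in Ctr, C2 and C4, near the floor.

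In the oligodendrocyte lineage list, 2 of 19 genes were below both and 5 lower than the average. Gpr17, a receptor of committed oligodendrocyte precursors, read 4.87, 4.87 and 4.74 in Ctr, 3.12, 3.62 and 2.63 in C2 and 7.33, 7.56 and 7.70 in C4. It had the largest negative difference from the average among the probe sets that stand for genes, -3.06. However, its C2 mean of 3.12 lay under 4, so that a fold against it is not well measured. By RT-qPCR the study reported the opposite direction for C2, with Gpr17 higher than in control cultures. Cnp, a myelin-associated phosphodiesterase, read 10.92, 10.78 and 10.85 in Ctr, 10.60, 10.54 and 10.53 in C2 and 11.26, 11.30 and 11.32 in C4. Dimmer probe sets of Cnp were not called against the average, and their C2 differences from Ctr were -0.14 and -0.15. Pdgfra, Omg and Bcas1 were lower than the average without being called against Ctr. Mag and Myrf, of mature oligodendrocytes, were at the lowest value in every condition. Gpr17 lost its call without any 1 of 6 arrays (Ctr replicates 1, 2 and 3, C2 replicate 1 and C4 replicates 2 and 3), and Cnp without Ctr replicate 3 or any 1 of the C2 arrays.

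Further genes below both encode proteins of the cell surface. Cntn1, a neural adhesion molecule, read 10.16, 9.97 and 9.88 in Ctr, 9.36, 9.41 and 9.33 in C2 and 10.66, 10.65 and 10.50 in C4. The protocadherin Pcdh15 read 8.27, 8.37 and 8.38 in Ctr, 7.79, 7.55 and 7.56 in C2 and 8.19, 8.15 and 8.19 in C4, and the clustered protocadherin Pcdhb10 read 5.20 on each Ctr array, 4.44, 4.74 and 4.66 in C2 and 5.31, 5.44 and 5.43 in C4. For Pcdh15, C4 lay slightly below Ctr, and C4 against Ctr was not called for either protocadherin. Plxnb3, a semaphorin receptor, read 7.22, 7.30 and 7.28 in Ctr, 6.81, 6.93 and 6.70 in C2 and 8.0, 7.86 and 7.92 in C4. A Plxnb3 probe set near the floor, with means of 3.24 in Ctr and 3.11 in C2, was not called against Ctr (adjusted p = 0.644). Cd24a, a surface protein of neuroblasts, read 9.92, 9.88 and 9.81 in Ctr, 9.43, 9.34 and 9.46 in C2 and 10.32, 10.37 and 10.31 in C4.

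Cd24a was the only one of 20 genes of neuroblasts and neurons below both. Its call and that of Pcdh15 held without each array, while those of Cntn1 (Ctr replicate 2 and each C2 array), Pcdhb10 (each Ctr array and C2 replicate 3) and Plxnb3 (each Ctr array, C2 replicates 1 and 3 and C4 replicate 3) were lost without any 1 of the arrays given.

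Of the Notch ligands, 1 was above and 1 below both. Jag1 was above both, with 8.99, 8.99 and 9.06 in Ctr, 9.65, 9.60 and 9.70 in C2 and 8.61, 8.58 and 8.64 in C4. Dll3, a divergent ligand that blocks Notch within the cell, was below both, with 5.88, 5.94 and 5.95 in Ctr, 5.44, 5.46 and 5.21 in C2 and 7.21, 7.17 and 7.30 in C4. For each of the ligands no array of C2 overlapped with the other conditions. Dll1 and the target gene Nrarp were lower than the average without a call against Ctr, and the targets Hes1 and Hes5 had differences of 0.15 and -0.13 that were not called. In total 1 of 17 Notch genes was above and 1 below both. Jag1 kept its call without each array but lost it when its 3 probe sets were averaged, the other 2 having differences of -0.05 and 0.13, and Dll3 lost it without any 1 of the Ctr arrays or C2 replicate 1.

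Nnat (neuronatin, a small membrane protein of developing brain) and Rgcc (a regulator of the cell cycle) were below both, and C4 against Ctr was not called for either. Nnat read 8.06, 7.99 and 7.94 in Ctr, 7.22, 7.29 and 7.22 in C2 and 8.03, 8.21 and 8.18 in C4. Rgcc read 9.30, 9.26 and 9.21 in Ctr, 8.69, 8.62 and 8.55 in C2 and 9.44, 9.26 and 9.46 in C4. Another probe set of Rgcc, with means of 7.16, 6.74 and 8.08 in Ctr, C2 and C4, was not called against Ctr (adjusted p = 0.299). The values that follow are those of the probe set of highest mean. The C2 mean was 0.594-fold that of Ctr for Nnat and 0.643-fold for Rgcc, and both calls held without each array.

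Neat1, the long non-coding RNA of paraspeckles, read 7.50, 7.64 and 7.62 in Ctr, 7.01, 6.96 and 6.91 in C2 and 8.18, 8.34 and 8.48 in C4. Pik3r3, a regulatory subunit of PI3 kinase, read 8.93, 8.99 and 8.98 in Ctr, 8.47, 8.39 and 8.54 in C2 and 9.29, 9.26 and 9.48 in C4. For both, C4 was called higher than Ctr. Marcksl1, an actin-binding substrate of protein kinase C, had means of 10.39, 9.70 and 10.28 in Ctr, C2 and C4. The probes of this probe set may read other transcripts as well. While 2 further probe sets were below both, another was not called against the average (means of 8.03, 6.93 and 7.37, adjusted p = 0.153). Ctse, the protease cathepsin E, had means of 8.20, 7.63 and 8.18. Neat1 lost its call without Ctr replicate 2 or 3 or any 1 of the C2 arrays, Pik3r3 without any 1 of the Ctr or C2 arrays, Marcksl1 without any 1 of 7 arrays (kept without Ctr replicates 1 and 3) and Ctse without any array other than C2 replicate 2.

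**Figure D5:**
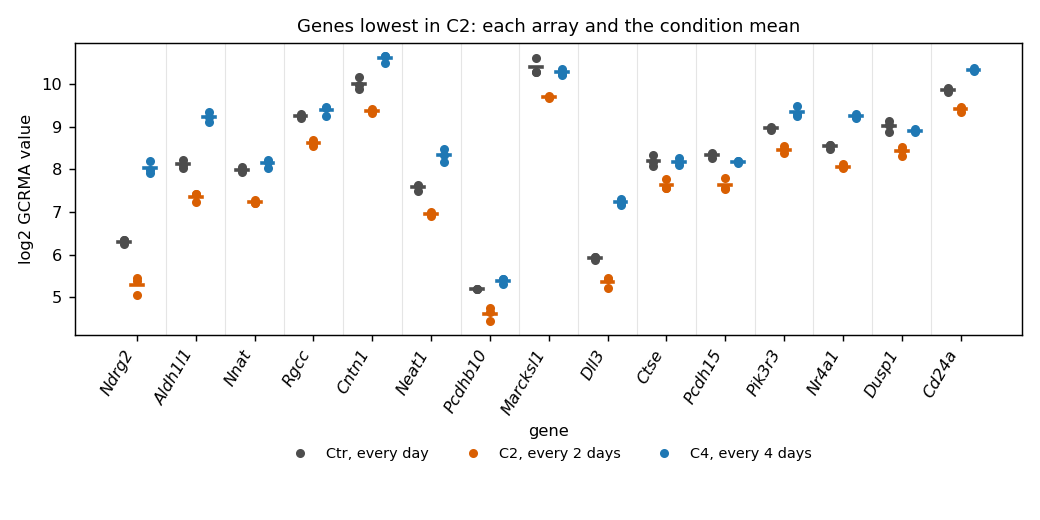
Log2 GCRMA values (vertical axis) of the 15 genes with the largest smaller difference below Ctr and C4, with 1 point per array and a line at the mean of each condition. All 3 C2 arrays (orange) lie below all Ctr (grey) and C4 (blue) arrays for every gene shown, which is part of how the genes were chosen, and the C4 arrays are the highest for Ndrg2, Aldh1l1 and Dll3.

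Immediate early genes, which growth factors and other stimuli switch on within minutes, were lower in C2 than the average for 8 of 14 members, and 2 of them were below both. The median difference was -0.35. Nr4a1, an orphan nuclear receptor, read 8.58, 8.58 and 8.49 in Ctr, 8.12, 8.03 and 8.05 in C2 and 9.24, 9.29 and 9.21 in C4, and kept its call without each array. Egr2, a zinc finger factor, read 9.33, 9.26 and 9.33 in Ctr, 9.06, 8.98 and 9.09 in C2 and 9.76, 9.83 and 9.78 in C4, and kept its call only without C4 replicate 2. Another Egr2 probe set was lower than the average but not called against Ctr (difference -0.17, adjusted p = 0.297). For Fos, Egr1 and Ier2 the call rested on C4: the C2 mean of Fos was 12.59, beside 12.65 in Ctr and 13.20 in C4.

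Atf3, which is also a gene of the stress response, was the exception in the list and was above both. It read 5.37, 5.37 and 5.32 in Ctr, 5.93, 5.98 and 5.85 in C2 and 5.22, 5.04 and 5.09 in C4. Dusp1, a phosphatase that switches MAP kinases off, was below both, with 8.88, 9.04 and 9.13 in Ctr, 8.46, 8.32 and 8.53 in C2 and 8.90, 8.87 and 8.94 in C4, and kept its call only without Ctr replicate 1. Phlda1 was the only 1 of 15 genes of ERK feedback and FGF targets below both, with 9.68, 9.58 and 9.56 in Ctr, 9.22, 9.20 and 9.15 in C2 and 9.46, 9.49 and 9.55 in C4, and its call held without each array. Of this list 2 genes, Spry1 and Ier3, were higher than the average and 1 lower. Spry1 was not called against Ctr (adjusted p = 1), and Spry2, Spry4, Dusp6 and Etv5 were not called by the comparison with the average.

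Cholesterol synthesis was lower in C2 than the average for 8 of 16 genes and higher for none, with a median of -0.27. Lss, which makes lanosterol, and Stard4, a cholesterol transfer protein, were below both. Lss read 8.91 on each Ctr array, 8.40, 8.49 and 8.52 in C2 and 9.05, 8.96 and 9.18 in C4, and Stard4 read 9.35, 9.48 and 9.29 in Ctr, 8.96, 8.95 and 8.93 in C2 and 9.39, 9.33 and 9.35 in C4. In both genes C2 was the lowest on every array and C4 against Ctr was not called. Idi1, Fdps, Fdft1, Sqle, Dhcr7 and Nsdhl were lower than the average without a call against Ctr, with differences between -0.21 and -0.38. Lss lost its call without any 1 of the Ctr or C2 arrays, and Stard4 without C2 replicate 3.

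Acetyl-CoA and fatty acid synthesis, a list added after the data were seen, was similar, with 6 of 16 genes lower than the average and none higher. Acss2, which makes acetyl-CoA from acetate, had means of 9.15, 8.53 and 8.83 in Ctr, C2 and C4, and Mboat2, an acyltransferase of membrane lipids, had means of 8.21, 7.84 and 8.36, and each was below both other conditions. Acly, Fasn, Scd1 and Fads2 were called lower than the average and than C4 but not against Ctr. The regulators Srebf2 and Srebf1 had differences of 0.11 and 0.01 and were not called.

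The comparison with the average alone does not show that C2 was the extreme condition. Among 39 genes named by the study, 15 were lower than the average and 3 higher, but 3 were below both (Ndrg2, Gpr17 and Plxnb3) and 1 was above both (Cox6a2). Since the study chose many of these genes on the same arrays, their count is not independent evidence. Pla2g7, a phospholipase, averaged 7.12 (Ctr), 7.39 (C2) and 9.85 (C4), and was called lower than the average (difference -1.10) although C2 lay between. Cryab, Dscaml1, Fgfr3, Ttyh1, Vcam1, Cdh11, Egfr, Plxnb1, Grin3a, Omg and Grm3 were called lower than C4 and than the average but not against Ctr. Ier3, a gene of ERK signalling, was called higher than the average by 0.13 (adjusted p = 0.0475) although it fell with the interval, from 10.29 in Ctr to 9.66 in C2 and 8.78 in C4. Igfbp3, which binds insulin-like growth factors, had means of 12.06, 12.25 and 11.09, and C2 against Ctr was not called (adjusted p = 0.257). Another probe set of Igfbp3, with means of 10.52, 10.95 and 9.88 in Ctr, C2 and C4, was above both (adjusted p = 0.0254 against Ctr).

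In the remaining lists few members were beyond both conditions. Hspd1, the mitochondrial chaperonin, was above both and Hspa8, a cytosolic chaperone, below both, as 1 gene each of 13 chaperones, with differences from the average of 0.30 and -0.19. Txn1 (thioredoxin, 0.15) was the only 1 of 12 NRF2 targets above both, B2m (0.13) the only 1 of 18 genes of interferon response and antigen presentation, and Acot2, a mitochondrial acyl-CoA thioesterase (0.27), the only 1 of 16 genes of lipid breakdown. Of these, Acot2 kept its call without each array, and Hspd1, Hspa8, Txn1 and B2m lost theirs without at least 5 of the 9 arrays. No gene was beyond both in the lists of hypoxia and glycolysis (17 measured), FGF and EGF ligands and receptors (15), DNA replication (19), mitosis (17), BMP and Id genes (17), neural stem and progenitor cells (15), p53 targets (13), FOXO targets (16), apoptosis regulators (15), lysosomal proteins (17), synaptic vesicle release (17), integrins and matrix (21) and sex-linked genes (4).

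Markers of other cells that the cultures could hold were not beyond both in any case. Of 11 microglia and macrophage genes 1 had a mean of 4 or more and 1 was higher than the average, and the log2 of their sum was 8.08 to 8.32 in Ctr, 8.08 to 8.12 in C2 and 6.61 to 6.70 in C4. None of 8 endothelial genes, 9 genes of pericytes and fibroblasts, 7 of olfactory ensheathing cells and 8 of ependymal cells was called in the comparison. The log2 of the sum of the 15 genes of neural stem and progenitor cells was 16.12 to 16.16 in C2, 16.17 to 16.27 in Ctr and 16.19 to 16.27 in C4. The 3′ minus the 5′ probe set of Gapdh, a measure of RNA integrity, was -0.381, -0.397 and -0.380 in C2, between -0.332 and -0.277 in Ctr and between -0.386 and -0.272 in C4, and its part in the results was not tested.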

How the data were processed

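RNA of aOBSC neurospheres from 3 conditions was hybridised to 9 Affymetrix Mouse Genome arrays, 3 per condition. The authors normalised the arrays with GCRMA (version not given in the sources used here), and the deposited log2 values were used unchanged. Arrays give no read depth, so that their number limits the precision. After removal of 64 control probe sets, 45037 were tested without a filter with limma 3.58.1 in R 4.3.3: 1 mean per condition, an intensity trend in the variance prior, 6 residual and 0.574 prior degrees of freedom, and Benjamini-Hochberg adjustment over all probe sets for each of 3 contrasts (C2 minus the average of Ctr and C4, C2 minus Ctr, C2 minus C4). C4 minus Ctr, and Ctr and C4 each against the average of the other conditions, were tested in the same way. An adjusted p under 0.05 is a call. The procedure was tested on simulated data.

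Probe sets with 1 symbol (34945; 932 had several and 9160 none) stand for 18194 genes. Symbols were updated through Entrez numbers, which matched RefSeq GRCm38.p6 for 34741 probe sets. Promoters are those of RefSeq on that build. Named genes passed all 3 contrasts with every condition mean at 4 or more and no overlap of arrays, ranked by the smaller difference (15 per direction), with up to 3 called members per list and the called genes named by the study. Genes with a condition mean under 4 are named as such, and other list members were named after their values were seen. The members and lists were chosen with earlier results of these data known, and the lists of mitochondrial synthetases and of fatty acid synthesis and the families taken by symbol were added after the data were seen. Alternatives changed the prior, the filter, the scaling, the probe sets, the threshold and the arrays.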

Additional observations from a re-analysis of the deposited data

How the results depend on the processing

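Numbers are probe sets higher and lower than the average of Ctr and C4, then above and below both conditions, and were 701, 566, 264 and 82 as reported. A robust variance prior gave 214, 158, 28 and 2. Leaving out probe sets that did not exceed 4 on 3 arrays gave 1315, 1075, 523 and 223, and both together, chosen after seeing the data, gave 1357, 1119, 537 and 242. Without probe sets whose names end in _x_at, _s_at or _a_at, which removes them from the test, 422, 324, 141 and 41 were counted. An adjusted p under 0.01 gave 254, 173, 66 and 14, and differences of at least 1 gave 48, 21, 16 and 2. Shifting the arrays to a common median gave 171 below both, and leaving out probe sets with 1 value on all arrays, chosen after seeing the data, gave 128. Leaving out 1 array gave 408 to 623, 242 to 519, 113 to 213 and 33 to 57. The cause of these changes was not tested other than where the setting itself removes probe sets, arrays or calls.

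For the conditions set beside C2, the filter on dim probe sets gave 387 above and 494 below both for Ctr and 1548 and 1018 for C4, and the replicate block gave 50, 60, 683 and 399. Leaving out 1 array gave 62 to 147, 63 to 146, 605 to 1035 and 398 to 507.

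With the replicate number as a block the counts were 351, 270, 104 and 25. The labels do not tie equal numbers to a shared culture, and same-numbered arrays did not deviate together (r between -0.043 and 0.13 over probe sets), so that the block is given here only. For the 34 genes of the 5 stress and amino acid lists above both, the robust prior gave 10, the block 18, the removal of the suffixed probe sets 20, an adjusted p under 0.01 gave 14 and differences of at least 1 gave 3, with 18 to 30 when 1 array was left out. For the 13 synthetases the same settings gave 3, 8, 8, 5 and 0, with 7 to 11 when 1 array was left out. Both of these sets of counts were chosen after seeing the data.

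Of 56 named genes beyond both, 31 kept the call without each of the 9 arrays, 17 kept it with the robust prior, 55 with that prior and the filter, 29 with the block and 50 when each gene’s probe sets were averaged (lost: Ctse, Txn1, Jag1, Cnp, Acot2 and B2m). Over the alternatives in which a named gene had a value, all 1306 differences from the average kept their direction. The genes ranked first by the smaller difference in each direction had 22 other probe sets with a condition mean of 4 or more. Of these, 21 had a difference from the average in the same direction, and 14 had the call beyond both.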

Other observations

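Besides the lists above, genes of mitochondrial translation and protein import were among those above both, and were counted by family from their symbols after this was seen, so that no test is given. Of 76 mitochondrial ribosomal proteins, 14 were higher in C2 than the average of Ctr and C4 and none lower, and 6 were above both (Mrpl2, Mrpl15, Mrps6, Mrps10, Mrps18a and Mrps34). The differences were small: Mrps6 averaged 11.32 (Ctr), 11.64 (C2) and 11.22 (C4) (difference from the average 0.36, limma adjusted p = 0.0027), and the median of the family was 0.14. Its difference from the average was above 0 for 67 of the 76, beside 49.4% of the 9256 genes with every mean at 4 or more. Of 23 translocases of the mitochondrial membranes, 4 were above both (Timm8a1, Timm10, Timm17a and Timm23) and 5 higher than the average, with Timm10 at 8.58, 9.02 and 8.56 in Ctr, C2 and C4.

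Of 35 complex I subunits, 3 were above both (Ndufa12, Ndufs8 and Ndufv1), and of 44 mitochondrial carriers, 3 (Slc25a33, Slc25a39 and Slc25a47, the last with means under 4). The cytosolic ribosomal proteins (57) and the proteasome subunits (40) had no member beyond both, with medians of 0.05 and 0.06. Their differences from the average also leaned above 0, for 37 of 50 and 31 of 36 with every mean at 4 or more. A lean above 0 was thus not particular to the mitochondrial families. For the mitochondrial ribosomal proteins and complex I the median difference from Ctr, 0.18 and 0.20, was larger than that from C4, 0.07 and 0.04. Of 22 clustered protocadherins, 2 were lower than the average, 1 of them below both (Pcdhb10), and the median over the 13 with every mean at 4 or more was -0.13.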
